A study of Bos taurus with 16 samples.

Results

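The genes NMB, NPPC and OXT encode the precursors of 3 small secreted peptides, neuromedin B, C-type natriuretic peptide and oxytocin. All probe sets whose gene symbol in the platform annotation was NMB, NPPC or OXT were taken, which gave 4 of the 24016 probe sets tested on Affymetrix bovine GeneChip arrays. NMB (Entrez gene 506584) and OXT (280888) have 1 probe set each, and NPPC (281356) has 2, told apart here by the endings of their names, S1_a_at and A1_at. The probe sets stand for 3 of 9155 named genes. The RNA came from bovine theca interna cells, the layer of the follicle wall that makes androgen, pooled from many small antral follicles of slaughterhouse ovaries and grown in primary culture without serum for 6 days. From day 3 to day 6 the cells received LH at 160 pg/ml together with BMP6 at 10 ng/ml (LH+BMP6), BMP6 alone, LH alone, or neither (control). Each of the 4 groups held 4 arrays, which the labels describe as 4 experiments on different batches of ovaries, so that 16 arrays were compared. LH is luteinising hormone, the pituitary signal for theca steroid synthesis, and BMP6 is bone morphogenetic protein 6, a growth factor that signals through SMAD proteins. The comparison asks what BMP6 does to theca cells with and without LH. Values are log2 signals, on which a step of 1 is a doubling. They are comparable between arrays for 1 probe set, but not between probe sets.

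All 3 peptides are cut from larger precursors in the secretory pathway and act on receptors at the surface of nearby or distant cells. Neuromedin B belongs to the bombesin family and is known from brain, pituitary and gut, where it acts through the receptor NMBR. C-type natriuretic peptide activates the guanylyl cyclase receptor NPR2, and in the mouse follicle granulosa cells make it and the resulting cGMP holds the oocyte in meiotic arrest. Oxytocin is a hormone of the posterior pituitary that ruminant granulosa and luteal cells also make, and it acts through the receptor OXTR.

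The arrays were much alike, with correlations between 0.990 and 0.997 for pairs of arrays of the same group across probe sets. LH replicate 1 and control replicates 1 and 3 had weak signals for the transcripts spiked into every sample as hybridisation controls (18 probe sets). Their means were 8.94 to 9.01 on these 3 arrays and 10.15 to 10.44 on the 13 others. Where a named call of the peptide systems was lost without these 3 low-spike arrays, this is said beside it. Leaving them out also makes the control and LH groups smaller. Over all probe sets the calls then went from 4340 to 2660 in BMP6 against control and from 4879 to 3474 in LH+BMP6 against LH. Whether a call was lost through the weak spike signal or the smaller groups was not tested. Defining theca markers were present at high signal on the arrays without BMP6. INSL3, the peptide hormone of theca cells, lay between 14.02 and 14.18 with LH and between 13.88 and 14.29 in control. The highest signals of the 16 arrays were 14.07 to 14.42, so INSL3 stood near the top of the scale without BMP6. Whether this limited its values was not tested. LHCGR, the receptor for LH, lay between 7.81 and 8.53 with LH and between 7.50 and 8.13 in control. With both LH and BMP6 the signal of LHCGR was 5.85 to 6.54, and with BMP6 alone 5.40 to 6.12. Of 17 measured theca and steroidogenic markers, 1 rose and 11 fell in BMP6 against control, and 1 rose and 13 fell in LH+BMP6 against LH. Among all named genes 9.31% rose and 15.5% fell in BMP6 against control, and 11.7% and 15.5% in LH+BMP6 against LH. In RNA from whole cultures, fewer cells of a type and less RNA per cell cannot be told apart.

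NMB fell in every comparison of BMP6 with its counterpart without BMP6. With LH+BMP6 its log2 signal was 7.84, 7.82, 7.69 and 8.19 on replicates 1 to 4, and with BMP6 alone it was 7.61, 8.17, 7.78 and 7.87. With LH alone it was 12.34, 10.98, 11.46 and 11.82, and in control it was 12.18, 11.29, 9.71 and 10.58. The 8 arrays with BMP6 all lay below the 8 arrays without it, and the lowest array without BMP6, control replicate 3, stood above the highest array with BMP6. Over the whole array, 6.34% of probe sets lay lower in this way without overlap. In LH+BMP6 against LH alone this share was 11.2%, and in BMP6 against control it was 12.7%. In order of level the group means were 11.65 ± 0.57 with LH, 10.94 ± 1.05 in control, 7.88 ± 0.21 with LH+BMP6 and 7.86 ± 0.24 with BMP6 (SD, n = 4 each). LH and control overlapped, as did LH+BMP6 and BMP6, so the order within each of these pairs is not larger than the spread between arrays.

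**Figure D1:**
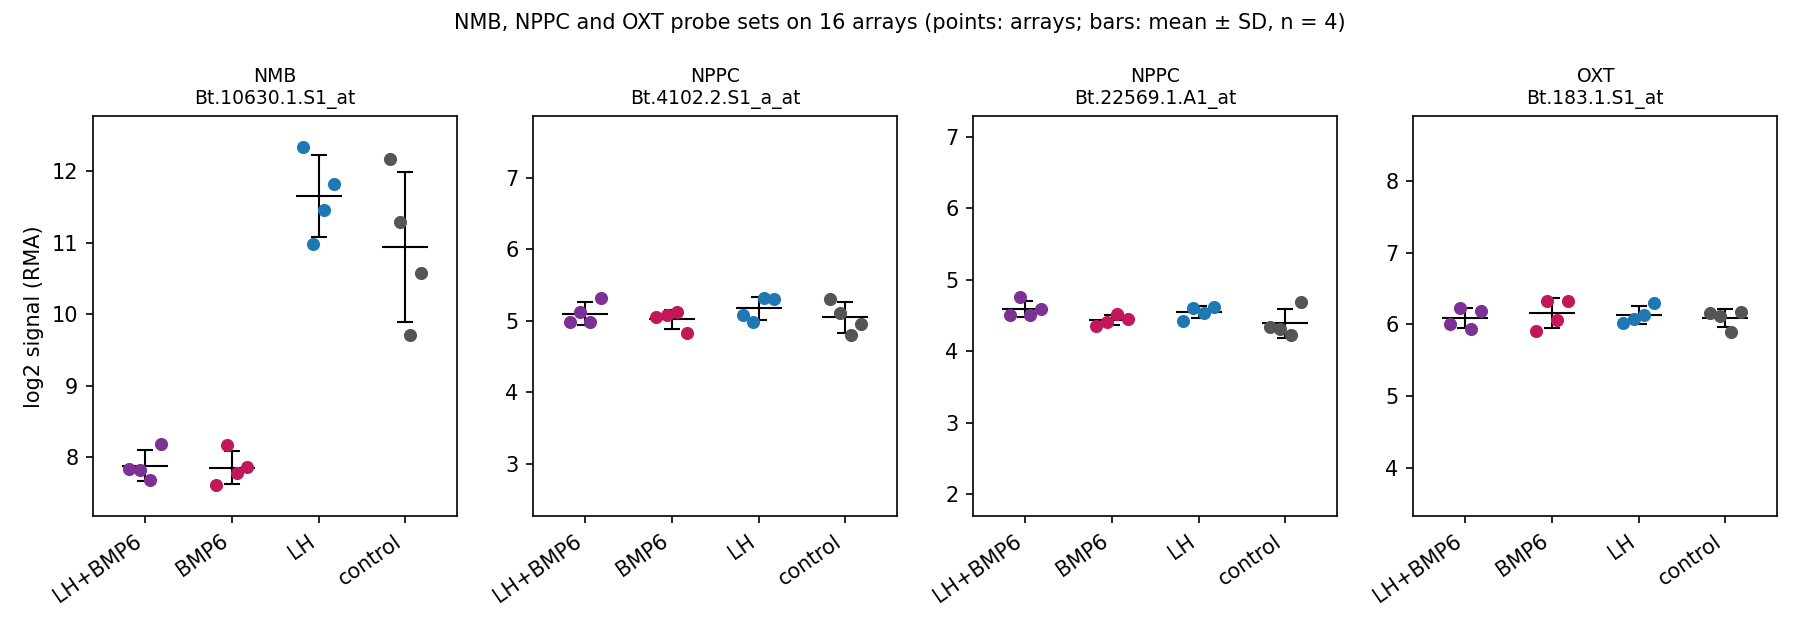
Log2 signal (RMA, vertical axis, the same span in each panel) of the 4 probe sets on every array, by group from LH+BMP6 to control, with points for arrays and bars for the mean ± SD of 4 arrays. NMB lies between 7.61 and 8.19 on the 8 arrays with BMP6 and between 9.71 and 12.34 on the others, while the groups of both NPPC probe sets and of OXT overlap.

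In LH+BMP6 against LH, NMB fell by 3.77 ± 0.37 on the log2 scale (SE), which is 13.6-fold, with a 95% interval of -4.55 to -2.99 and an adjusted p of 3.29e-06 by limma. In BMP6 against control it fell by 3.08 ± 0.37, which is 8.48-fold, with an interval of -3.86 to -2.31 and an adjusted p of 2.52e-05. The background is wide, since 20.3% of probe sets were called in LH+BMP6 against LH and 18.1% in BMP6 against control, at an adjusted p under 0.05. Of the 4 probe sets 1 was called in each comparison, that of NMB. The size of the fall placed NMB near the end of the list, because of 9155 named genes only 4 had a larger fall in LH+BMP6 against LH, namely INSL3, LOC767968, CYP17A1 and TNNI3. In BMP6 against control 5 genes had a larger fall, namely INSL3, INHA, TNNI3, LOC783399 and LOC508666. Against control, which these comparisons share, LH+BMP6 gave a fall of NMB of 3.06 ± 0.37 (8.31-fold, adjusted p = 2.64e-05 by limma, with 19.3% of probe sets called). Without the 3 low-spike arrays NMB fell by 3.54 in LH+BMP6 against LH and by 3.08 in BMP6 against control.

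NMB was not called in LH against control. The difference of LH against control was 0.71 ± 0.37 (95% interval -0.07 to 1.49, adjusted p = 0.92 by limma), and it was 0.30 without control replicate 3, which had the lowest value, and 1.12 without control replicate 1, which had the highest. Both are low-spike arrays, and the part of that in the spread of the controls was not tested. Only 0.0125% of probe sets were called in LH against control. In the presence of BMP6, adding LH gave 0.03 ± 0.37 (interval -0.75 to 0.81, adjusted p = 1.00), in a comparison where 0% of probe sets were called and 471 of 24016 had an unadjusted p under 0.05. The interaction, which is how far the effect of BMP6 with LH differs from that without LH, was -0.68 ± 0.52 (interval -1.78 to 0.42, adjusted p = 1.00). The interaction also had 0 probe sets called by limma, with 773 at an unadjusted p under 0.05.

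**Figure D2:**
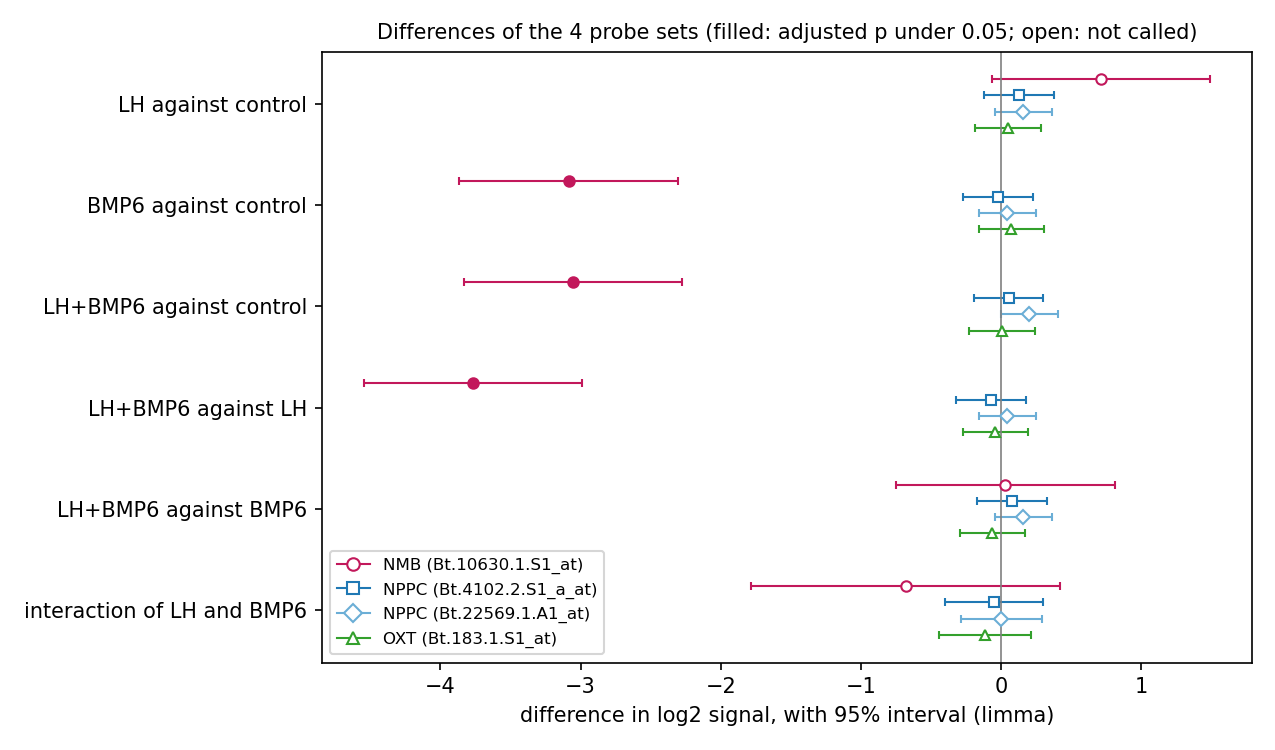
Difference in log2 signal with its 95% interval (horizontal axis) for the 4 probe sets in 6 comparisons (vertical axis), with filled symbols for an adjusted p under 0.05. The NMB differences in the 3 comparisons of BMP6 with a group without it lie between -3.77 and -3.06, and the intervals of NPPC and OXT stay within 0.5 of 0.

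NMB varied more across the 16 arrays than nearly all other probe sets, with an SD of 1.87 and 6 of 24016 probe sets above it. The median SD of all probe sets was 0.161. The probe sets of NPPC had SDs of 0.163 and 0.145, and that of OXT had 0.141, so 50.9%, 39.3% and 36.6% of probe sets varied less than these 3.

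NPPC was not called in any comparison with either of its probe sets. The probe set ending in S1_a_at read 4.98, 5.13, 4.98 and 5.31 with LH+BMP6, 5.05, 5.09, 5.12 and 4.83 with BMP6, 5.08, 4.99, 5.32 and 5.31 with LH, and 5.30, 5.11, 4.81 and 4.96 in control. All 4 groups overlap, and no group stands high or low. Its differences ran from -0.07 in LH+BMP6 against LH (95% interval -0.32 to 0.17) to 0.13 in LH against control (interval -0.12 to 0.38). BMP6 against control gave -0.02 ± 0.12 (interval -0.27 to 0.23, adjusted p = 0.933 by limma).

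The other NPPC probe set, ending in A1_at, read 4.50, 4.75, 4.51 and 4.59 with LH+BMP6, 4.35, 4.41, 4.52 and 4.44 with BMP6, 4.42, 4.61, 4.53 and 4.61 with LH, and 4.33, 4.31, 4.22 and 4.69 in control. Control replicates 1 to 3 lay below every LH+BMP6 array, while control replicate 4 lay above all but 1 of them. LH+BMP6 against control gave 0.20 ± 0.10 (adjusted p = 0.172 by limma), and without control replicate 4 it was called at 0.30 (adjusted p = 0.0222). The differences in LH+BMP6 against LH and in BMP6 against control were both 0.04 ± 0.10 (interval -0.16 to 0.25 for each). Over the 16 arrays the NPPC probe sets followed each other weakly (Pearson r = 0.23, Spearman rho = 0.27). The lower quartile of the arrays was 4.31 to 4.43. That is within the span of the A1_at probe set (4.22 to 4.75) and below that of the S1_a_at probe set (4.81 to 5.32). The deposited table has no detection calls, so it is not said whether NPPC stood above background.

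OXT was not called in any comparison either. Its signal was 6.01, 6.23, 5.94 and 6.19 with LH+BMP6, 5.91, 6.33, 6.06 and 6.33 with BMP6, 6.02, 6.08, 6.13 and 6.30 with LH, and 6.15, 6.12, 5.90 and 6.17 in control. The group means of 6.09 ± 0.14, 6.16 ± 0.21, 6.13 ± 0.12 and 6.09 ± 0.13 in that order differ by less than the spread of any group. BMP6 against control gave 0.07 ± 0.11 (95% interval -0.16 to 0.30, adjusted p = 0.739 by limma) and LH+BMP6 against LH gave -0.04 ± 0.11 (interval -0.27 to 0.19, adjusted p = 0.842). LH against control gave 0.05 (interval -0.18 to 0.28). These intervals are narrow beside the fall of NMB, although signals do not compare between probe sets. The OXT signals lie around the medians of the arrays (6.10 to 6.16). Without detection calls it is not said whether OXT stood above background. OXT and AVP, the gene of vasopressin, share a near-identical neurophysin part, and whether the probes tell them apart was not tested.

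Other genes of these peptide systems were taken from lists of ligands, receptors, processing and degrading enzymes. The annotation names no probe set for the other bombesin peptide GRP or for the receptors NMBR, GRPR and BRS3, so the NMB receptor was not analysed here. NPPB, NPR1 and LNPEP are not named either. By gene, 24.8% of 9155 named genes were called in BMP6 against control, 9.31% higher and 15.5% lower, with a median difference of -0.02. In LH+BMP6 against LH 27.2% were called, 11.7% higher and 15.5% lower, with a median of -0.03.

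On the natriuretic peptide side, receptor genes rose in LH+BMP6 against LH while the ligand genes were not called. NPR3, the clearance receptor that removes natriuretic peptides, stood at 3.94 ± 0.10 with LH+BMP6 and 3.30 ± 0.10 with LH (SD, n = 4 each), and every LH+BMP6 array lay above every LH array, as for 20.9% of probe sets in either direction. The difference was 0.64 ± 0.13 (adjusted p = 0.00189 by limma). It averaged 3.74 ± 0.36 with BMP6 and 3.18 ± 0.10 in control, with no overlap between these groups (as for 22.8% of probe sets in either direction), a difference of 0.56 ± 0.13 (adjusted p = 0.00529), a call lost without the 3 low-spike arrays (adjusted p = 0.052). These signals lie below the lower quartile of the arrays. NPR2, the signalling receptor for C-type natriuretic peptide, averaged 8.26 ± 0.14 with LH+BMP6 and 7.95 ± 0.11 with LH, a difference of 0.31 ± 0.10 (adjusted p = 0.0392). That call was lost without LH replicate 1, 2 or 4, without LH+BMP6 replicate 3 or 4, and without the 3 low-spike arrays. The NPR2 difference in BMP6 against control, 0.25 ± 0.10 (adjusted p = 0.108), was called without BMP6 replicate 2. NPPA, which encodes atrial natriuretic peptide, differed by -0.21 ± 0.09 in LH+BMP6 against LH (adjusted p = 0.131) and by -0.05 ± 0.09 in BMP6 against control.

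Of 13 measured genes of natriuretic peptides and cGMP besides NPPC, 4 rose and 0 fell in LH+BMP6 against LH, with a median of 0.19, and 2 rose and 0 fell in BMP6 against control, with a median of 0.09. Those that rose in both were NPR3 and NOS2, the inducible nitric oxide synthase, whose product drives the soluble guanylyl cyclase. NOS2 rose by 2.59 ± 0.41 in LH+BMP6 against LH (adjusted p = 0.00026 by limma) and by 2.79 ± 0.41 in BMP6 against control (adjusted p = 0.000155). Of its 3 other probe sets 1 was not called and differed by -0.16 in LH+BMP6 against LH and by 0.14 in BMP6 against control. PDE5A, a phosphodiesterase that breaks down cGMP, rose by 0.38 ± 0.11 in LH+BMP6 against LH (adjusted p = 0.018). The PDE5A call was lost without LH replicate 1 or 2, without LH+BMP6 replicate 1, and without the 3 low-spike arrays. Without the 3 low-spike arrays 2 of the 13 rose and 1 fell in LH+BMP6 against LH, and 1 rose and 0 fell in BMP6 against control.

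In the oxytocin and vasopressin system 1 of 5 measured genes besides OXT fell in LH+BMP6 against LH, with a median of -0.10 over the 5. For BMP6 against control 0 were called by limma, with 1 at an unadjusted p under 0.05. The gene that fell was AVPR1A, the V1a receptor for vasopressin. Its signal was 4.01 ± 0.10 with LH+BMP6, 4.01 ± 0.10 with BMP6, 4.88 ± 0.40 with LH and 4.33 ± 0.07 in control. The LH+BMP6 arrays all lay below the LH arrays, and the BMP6 arrays all lay below the control arrays, as did 11.2% and 12.7% of all probe sets in these comparisons. The AVPR1A signals with BMP6 lie below the lower quartile of the arrays. The differences were -0.86 ± 0.14 in LH+BMP6 against LH (adjusted p = 0.000302 by limma) and -0.32 ± 0.14 in BMP6 against control (adjusted p = 0.126, and 0.0164 when only the arrays compared were fitted), and their difference, the interaction, was -0.54 ± 0.20 (adjusted p = 1.00). OXTR, the oxytocin receptor, averaged 3.69 ± 0.28 with LH+BMP6, 3.71 ± 0.20 with BMP6, 3.79 ± 0.11 with LH and 3.78 ± 0.10 in control, all below the lower quartile, and was not called. AVP differed by 0.00 ± 0.11 in LH+BMP6 against LH and by -0.14 ± 0.11 in BMP6 against control, neither of them called.

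**Figure D3:**
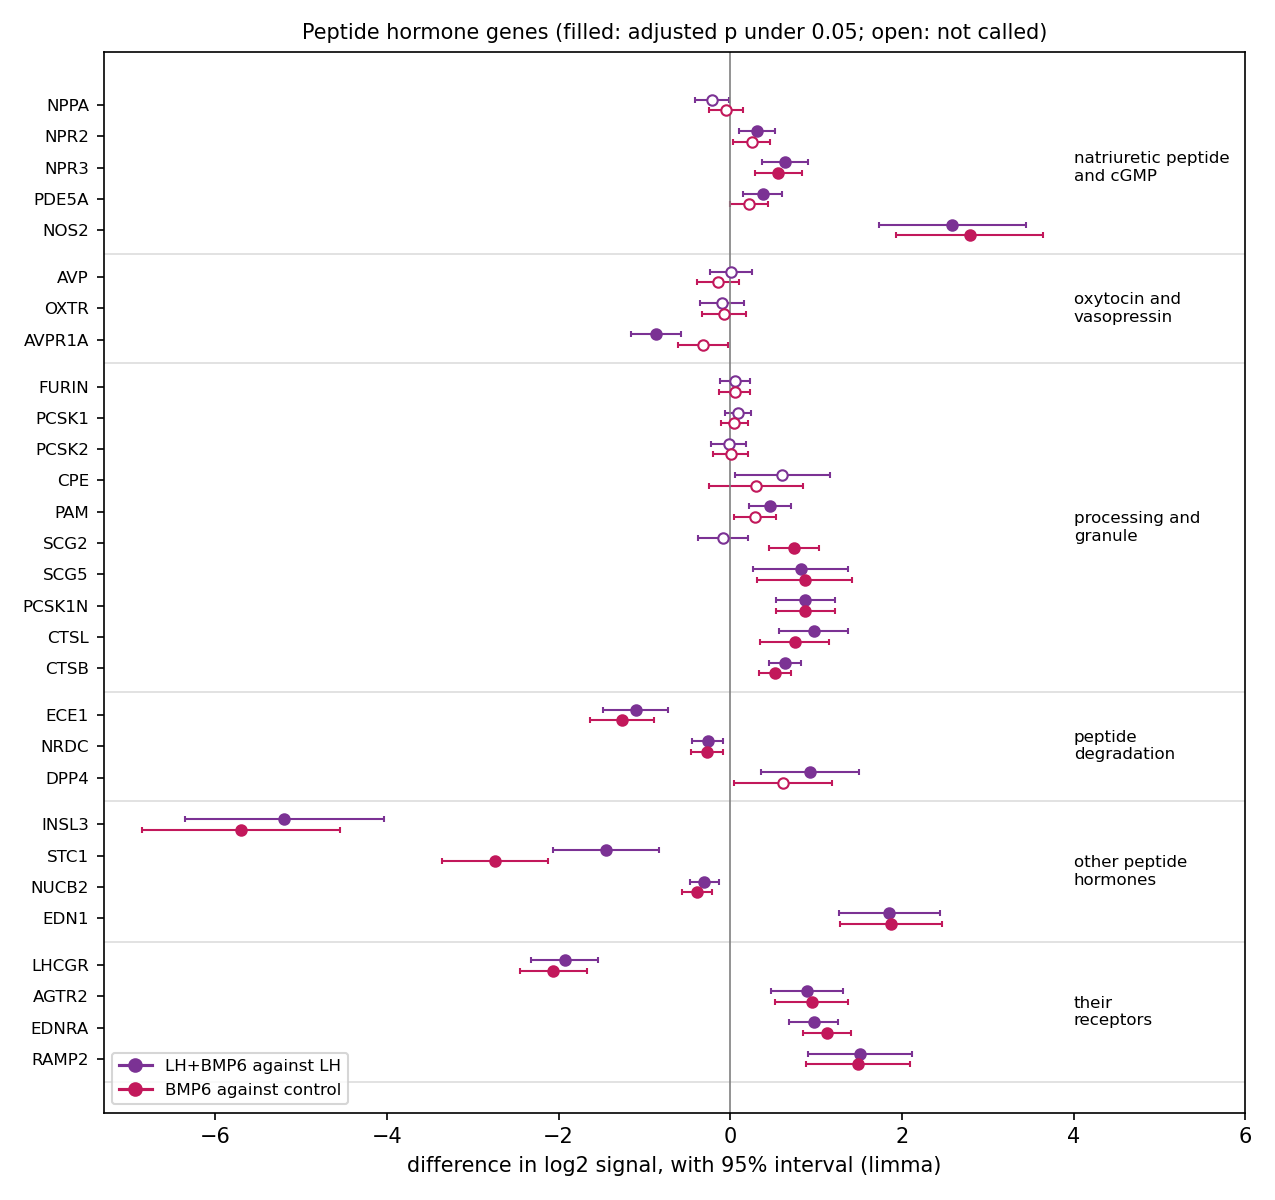
Difference in log2 signal with its 95% interval (horizontal axis) for named genes of the peptide systems (vertical axis), in LH+BMP6 against LH above BMP6 against control for each gene, with filled symbols for an adjusted p under 0.05. INSL3 has the largest falls drawn (-5.20 and -5.70), NOS2 the largest rises (2.59 and 2.79), and the convertase genes FURIN, PCSK1 and PCSK2 lie near 0.

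The convertases that cut peptide precursors were not called. FURIN, PCSK1 and PCSK2 differed by -0.02 to 0.09 in LH+BMP6 against LH and by 0.01 to 0.05 in BMP6 against control. The group means of PCSK1 (3.78 to 3.87) and PCSK2 (3.59 to 3.68) lie below the lower quartile of the arrays, so it is not said whether these genes stood above background. Of 20 measured genes of prohormone processing and secretory granules, 5 rose and 4 fell in LH+BMP6 against LH, and 5 rose and 4 fell in BMP6 against control. Medians were 0.07 and 0.05. Without the 3 low-spike arrays the counts were 3 and 4 in LH+BMP6 against LH, and 4 and 3 in BMP6 against control.

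PCSK1N, whose product proSAAS inhibits the convertase PCSK1, rose by 0.87 ± 0.16 both in LH+BMP6 against LH (adjusted p = 0.00105 by limma) and in BMP6 against control (adjusted p = 0.00121). SCG5, a chaperone of PCSK2, rose by 0.82 ± 0.26 (adjusted p = 0.0353) and 0.87 ± 0.26 (adjusted p = 0.0295) in the same order. Over the alternatives the SCG5 differences stayed between 0.64 and 0.99 in LH+BMP6 against LH and between 0.66 and 1.16 in BMP6 against control, but each call was lost in 11 of 23 of them, many single arrays left out among them. The adjusted p without the 3 low-spike arrays was 0.105 in LH+BMP6 against LH and 0.151 in BMP6 against control. The lysosomal and granule proteases CTSL and CTSB rose by 0.97 ± 0.19 and 0.64 ± 0.09 in LH+BMP6 against LH, and by 0.75 ± 0.19 and 0.52 ± 0.09 in BMP6 against control. CTSL in BMP6 against control was not called without replicate 2, nor with the low spike signal as a term in the fit. Of the 5 other CTSB probe sets, 4 were called higher in LH+BMP6 against LH and 2 in BMP6 against control. PAM, the enzyme that amidates the ends of neuromedin B and oxytocin, rose by 0.46 ± 0.12 in LH+BMP6 against LH (adjusted p = 0.00811), a call lost without the 3 low-spike arrays and without replicate 2. Another PAM probe set was called there at 0.38 (adjusted p = 0.00232), but not in BMP6 against control (0.18). The PAM difference in BMP6 against control was 0.29 ± 0.12 (adjusted p = 0.0954) and was called without BMP6 replicate 1 and when only the arrays compared were fitted. CPE, the carboxypeptidase that trims precursors, differed by 0.60 ± 0.26 and 0.30 ± 0.26 in these comparisons and was not called, although without LH+BMP6 replicate 2 the difference in LH+BMP6 against LH was.

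SCG2, which encodes the granule protein secretogranin II, took another course. It rose by 1.17 ± 0.14 in LH against control (adjusted p = 0.00396 by limma) and by 0.74 ± 0.14 in BMP6 against control (adjusted p = 0.00117), and it differed by -0.09 ± 0.14 in LH+BMP6 against LH (adjusted p = 0.726). The call in LH against control was lost without the 3 low-spike arrays and without replicate 1, 3 or 4. SCG2 was 1 of 2 named genes called in LH against control, where 0.0218% of named genes were.

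The genes of this list that fell were chosen after their values were seen. In both comparisons they included CHGA, the granule protein chromogranin A, and SEC11A and SEC11C, the catalytic subunits of the signal peptidase that removes the signal sequence of secreted precursors. CHGA fell by 0.44 in LH+BMP6 against LH and by 0.39 in BMP6 against control, while another CHGA probe set was not called and had differences of the opposite sign. SEC11A fell by 0.42 in LH+BMP6 against LH (adjusted p = 0.000229 by limma) and by 0.32 in BMP6 against control (adjusted p = 0.0022). SEC11C fell by 0.42 in LH+BMP6 against LH (adjusted p = 0.00257) and by 0.46 in BMP6 against control (adjusted p = 0.00143). The remaining calls were the signal peptidase subunits SPCS2, which fell by 0.24 in LH+BMP6 against LH, and SPCS1, which fell by 0.25 in BMP6 against control. SPCS2 lost its call without replicate 3 or 4, and SPCS1 without replicate 1, 2 or 3 or the 3 low-spike arrays.

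Of 9 measured peptide-degrading enzymes, 1 rose and 2 fell in LH+BMP6 against LH and 0 rose and 2 fell in BMP6 against control, with medians of -0.12 and -0.03. In each, 0 rose and 1 fell without the 3 low-spike arrays (limma). ECE1, the endothelin-converting enzyme, fell by 1.10 ± 0.18 in LH+BMP6 against LH (adjusted p = 0.000323 by limma) and by 1.26 ± 0.18 in BMP6 against control (adjusted p = 0.000114), and its other probe sets were called lower as well. NRDC, nardilysin, fell by 0.26 and 0.27, and both calls were lost in 13 of 23 alternative settings, leaving out single arrays and the 3 low-spike arrays among them. DPP4, dipeptidyl peptidase 4, rose by 0.93 ± 0.27 in LH+BMP6 against LH (adjusted p = 0.0205), a call lost without LH replicate 1 or 3, without LH+BMP6 replicate 1 or 2, and without the 3 low-spike arrays. Its other probe set was called there at 0.94 (adjusted p = 0.0486).

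Genes of other peptide hormones were called in either direction. Of 38 measured genes of other peptide hormones and neuropeptides, 1 rose and 4 fell in LH+BMP6 against LH and 1 rose and 4 fell in BMP6 against control, with medians of -0.06 and -0.01. Among all named genes 15.5% were called lower in each of these comparisons, so the count of falls in the list is near the background. INSL3 fell by 5.20 ± 0.55 and 5.70 ± 0.55. STC1, stanniocalcin, fell by 1.45 ± 0.29 and 2.74 ± 0.29. NUCB2, the precursor of nesfatin, fell by 0.30 and 0.39, and in LH+BMP6 against LH it lost its call without replicate 3 or 4. POMC, chosen after its values were seen, fell by 0.19 in LH+BMP6 against LH, a call lost without replicate 3 or 4 or the 3 low-spike arrays, and by 0.26 in BMP6 against control. The signals of this POMC probe set, 13.56 to 13.92, stood near the top of the scale in every group. Whether this limited its differences was not tested. Another POMC probe set was called at -0.52 in LH+BMP6 against LH (adjusted p = 0.00487 by limma), but not in BMP6 against control (-0.33). The gene that rose in both was EDN1, endothelin 1 (1.85 ± 0.28 and 1.87 ± 0.28).

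Of 37 measured receptors of peptide hormones, 5 rose and 2 fell in LH+BMP6 against LH, with a median of -0.05, and 5 rose and 2 fell in BMP6 against control, with a median of 0.06. Without the 3 low-spike arrays the counts were 3 and 2 in LH+BMP6 against LH, and 3 and 1 in BMP6 against control. LHCGR fell by 1.93 ± 0.19 in LH+BMP6 against LH and by 2.06 ± 0.19 in BMP6 against control, although 1 of its other probe sets, ending in A1_at, was not called. RAMP2, a partner of the adrenomedullin receptor, rose by 1.51 ± 0.29 and 1.49 ± 0.29. EDNRA, the endothelin A receptor, rose by 0.97 ± 0.13 and 1.12 ± 0.13. AGTR2, the type 2 angiotensin receptor, rose by 0.90 ± 0.20 and 0.95 ± 0.20, but its other 2 probe sets were not called. The other receptors called, chosen after their values were seen, were VIPR2 in both comparisons, CALCRL and TACR3 in LH+BMP6 against LH, and AGTR1 and PRLR in BMP6 against control. All of these lost their calls without at least 1 single array or replicate number, and all but TACR3 lost them without the 3 low-spike arrays. The other TACR3 probe set differed by 0.14 in LH+BMP6 against LH (adjusted p = 0.48), opposite in sign to the -0.33 of the one called. The other CALCRL probe set differed by 0.56 there (adjusted p = 0.076) and was not called, but it was called in BMP6 against control at 0.67 (adjusted p = 0.0388). The other VIPR2 probe set was called higher in both comparisons, by 0.65 and 0.66.

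The genes most like NMB across the 16 arrays were LRPAP1 (Pearson r = 0.984), APOD (0.981), KLF15 (0.977), NDUFAF3 (0.975) and TMEM254 (0.975), among 9152 other named genes, of which 417 had an r above 0.9. All arrays share the BMP6 contrast, so that any gene with a large and even fall gains a high r. LRPAP1 encodes a chaperone of lipoprotein receptors, APOD a lipid carrier, KLF15 a transcription factor and NDUFAF3 an assembly factor of mitochondrial complex I. Their falls were smaller than that of NMB. In LH+BMP6 against LH they ran from 0.92 for LRPAP1 and 0.94 for NDUFAF3 to 1.98 for TMEM254, and in BMP6 against control from 0.85 for NDUFAF3 to 1.70 for TMEM254, and all 5 genes were called in both. Within groups, as deviations from the group means, LRPAP1 still followed NMB at r = 0.91 and the other 4 at 0.68 to 0.79. The highest such value was 0.93, for PNPLA2, the triglyceride lipase of lipid droplets. LRPAP1 was 10.76 on control replicate 1 and 10.17 on control replicate 3, its highest and lowest controls, as for NMB. These low-spike arrays had the largest NMB deviations from a group mean (1.24 and -1.23). The within-group correlations therefore lean on them, and how far was not tested.

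**Figure D4:**
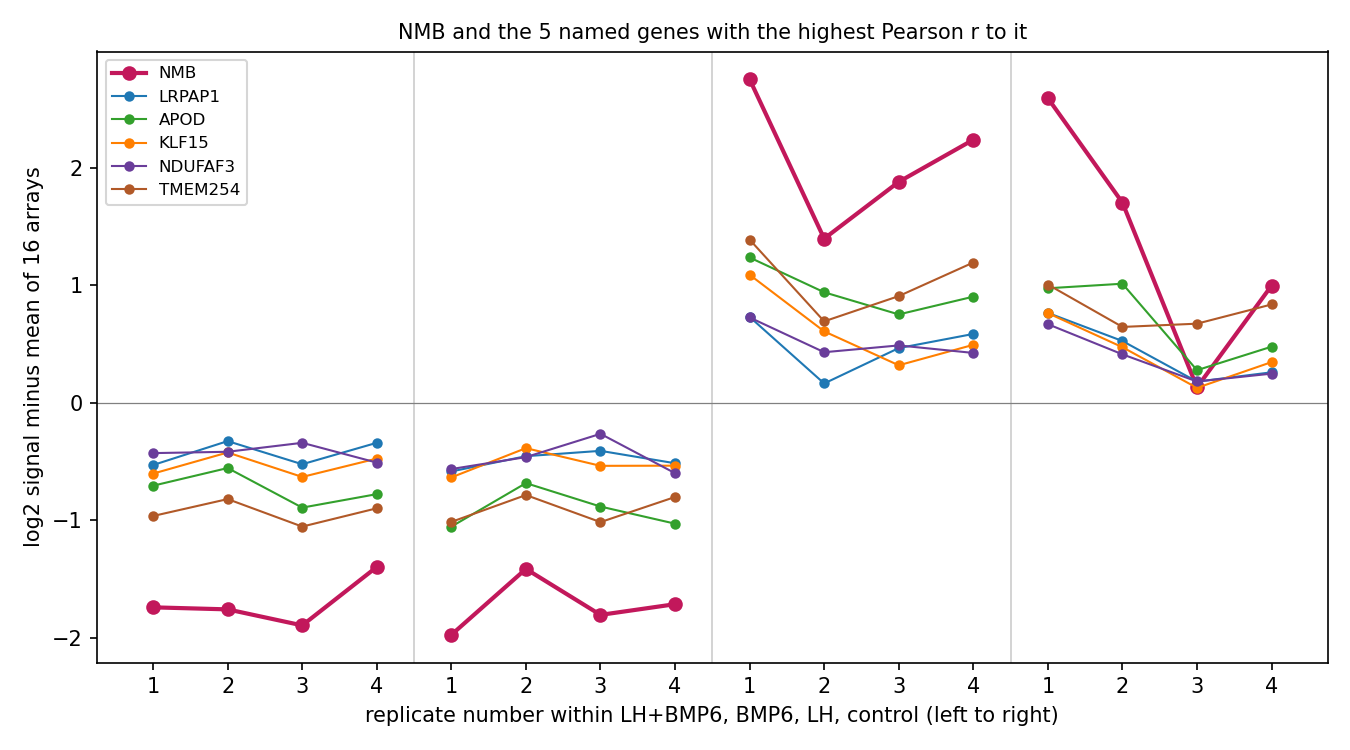
Log2 signal minus its mean over 16 arrays (vertical axis) for NMB and the 5 named genes with the highest Pearson r to it, by array (horizontal axis, replicate number within LH+BMP6, BMP6, LH and control), with lines joining the arrays of a group. NMB has the widest span, and all 6 genes lie below 0 on the 8 arrays with BMP6 and above 0 on the 8 others.

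Within groups NMB also moved with some genes from the list of theca and steroidogenic markers. These values lean on the same low-spike controls, replicates 1 and 3. Across the 17 theca and steroidogenic markers the correlation of deviations from group means ran from -0.37 for GATA4 to 0.86 for INHA, the inhibin alpha subunit, with a median of 0.28. It was 0.70 for CYP17A1, an enzyme of androgen synthesis, and 0.61 for ALDH1A1 and NR5A1. Lower values were 0.35 for LHCGR, 0.28 for HSD3B1, 0.19 for STAR, 0.17 for CYP11A1 and -0.26 for GATA6. INSL3, which stood near the top of the signal scale without BMP6, had 0.26. Over all named genes the median was 0.02, with 5th and 95th percentiles of -0.56 and 0.58. For 16 endothelial markers the median was -0.27 and for 17 leukocyte markers -0.09.

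Marker genes of several cell types were also called in the BMP6 comparisons. For all named genes the shares were 11.7% higher and 15.5% lower in LH+BMP6 against LH, and 9.31% and 15.5% in BMP6 against control. The mean signal of the 17 theca markers was 7.90 to 8.21 with LH+BMP6, 7.84 to 7.96 with BMP6, 9.61 to 10.33 with LH and 9.29 to 9.63 in control. The mean of 17 leukocyte markers was 7.14 to 7.33 with LH+BMP6, 6.84 to 7.29 with BMP6, 6.15 to 6.79 with LH and 6.56 to 6.75 in control. Of these, 10 rose and 0 fell in LH+BMP6 against LH (5 and 0 without the 3 low-spike arrays), and 3 rose and 0 fell in BMP6 against control. The mean of 18 fibroblast and pericyte markers was 9.59 to 9.97 with LH+BMP6, 9.57 to 10.00 with BMP6, 9.35 to 9.81 with LH and 9.38 to 9.80 in control, with 6 higher and 2 lower in LH+BMP6 against LH and 5 higher and 0 lower in BMP6 against control. For 14 neural markers, 3 rose and 0 fell in LH+BMP6 against LH and 4 rose and 0 fell in BMP6 against control. For 16 endothelial markers 1 rose and 2 fell in each, near the shares of all named genes. Of 15 granulosa markers, 4 rose and 2 fell in LH+BMP6 against LH and 2 rose and 0 fell in BMP6 against control. When the 3 low-spike arrays were left out of LH+BMP6 against LH, 1 endothelial marker rose and 4 fell, 3 granulosa markers rose and 1 fell, and 6 fibroblast and pericyte markers rose and 1 fell. The part of changed cell makeup in the fall of NMB was not tested. The difference between 3 prime and 5 prime actin probe sets, a sign of RNA quality, was 1.39 to 2.21 on the 8 arrays with BMP6 and 1.69 to 2.49 on the others, and its part was not tested.

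The genes most like NPPC (probe set ending in S1_a_at) were SLC45A1 (Pearson r = 0.875), DTNB (0.846), CRTAC1 (0.835), PROCA1 (0.816) and MOS (0.809). Those most like OXT were MAPT (0.843), SIX6 (0.833), SERPINA11 (0.830), ATP13A2 (0.818) and ACHE (0.791). None of these 10 genes was called in LH+BMP6 against LH or in BMP6 against control. The whole range of the NPPC probe set ending in S1_a_at over the 16 arrays was 0.51 and that of OXT 0.44 on the log2 scale, so these values describe small shared deviations. The other NPPC probe set followed that one only weakly (Pearson r = 0.23), and the genes most like it were not sought.

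In the RefSeq order of genes on the ARS-UCD2.0 assembly, NMB lies between WDR73 and SEC11A, with ZSCAN2 and ZNF592 next. None of the neighbours overlaps it. SEC11A was called lower in both comparisons, by 0.42 in LH+BMP6 against LH and by 0.32 in BMP6 against control, as given above. ZNF592 fell by 0.38 in LH+BMP6 against LH (adjusted p = 0.0208 by limma) and by 0.45 in BMP6 against control (adjusted p = 0.00836), and the call in LH+BMP6 against LH was lost without LH replicate 1 and that in BMP6 against control without replicate 4 of every group. Neighbours of NPPC that are named on the array, COPS7B and PDE6D, were not called. OXT lies between AVP and MRPS26, a mitochondrial ribosomal protein gene that fell by 0.43 in LH+BMP6 against LH (adjusted p = 0.00151) and by 0.45 in BMP6 against control (adjusted p = 0.00133), while PTPRA beyond it was not called.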

How the data were processed

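The deposited table holds log2 signals that the authors made with RMA in Affymetrix Expression Console, per the submitters' processing notes. Probe-level files, detection calls and probe sequences were not used here. The table has 24128 probe sets, of which 112 control probe sets were left out, and 0 columns of per-sample values were left unused. The platform annotation gave 13292 probe sets 1 symbol, 86 several and 10638 none. Where a gene has several probe sets, the one brightest on average was used, which gave 9155 named genes.

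limma 3.58.1 in R 4.3.3 fitted 4 group means over all 16 arrays with an intensity trend, with Benjamini-Hochberg adjustment over 24016 probe sets and calls at an adjusted p under 0.05. The fit was tested on simulated data with independent noise on every array. These held no shared deviations of replicate numbers and no low-spike arrays, so they do not test the fit under those. The number of arrays limits the precision, with a median SE of 0.102. Named were every member probe set, a fixed set of ligands, receptors and processing enzymes, from every list the called genes that moved most (4 at most) in LH+BMP6 against LH and in BMP6 against control, and the 5 genes with the highest Pearson r to each member. The members and lists were chosen with earlier results of these data known. Alternatives were other fits, filters and normalizations and leaving out arrays. Other packages were statmod 1.5.0, pandas 2.3.3, numpy 2.4.6 and matplotlib 3.10.9 in Python 3.11.15.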

Additional observations from a re-analysis of the deposited data

How the results depend on the processing

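NMB was called in 69 of 69 alternatives over the 3 comparisons of BMP6 with a group without it. Its differences ran from -3.99 to -3.52 in LH+BMP6 against LH, from -3.49 to -2.59 in BMP6 against control and from -3.46 to -2.63 in LH+BMP6 against control, and it was not called in LH against control in any. For NPPC and OXT, 18 results were recomputed in 429 alternatives, of which 1 was called and 45 changed sign. The 1 was the NPPC probe set ending in A1_at in LH+BMP6 against control, where leaving out arrays gave 0.12 to 0.30. Both NPPC probe sets are dropped when dim probe sets are left out. Without the 3 low-spike arrays, 0 probe sets were called in LH against control, 2660 in BMP6 against control, 2837 in LH+BMP6 against control and 3474 in LH+BMP6 against LH. With that signal as a term the counts were 2766 in BMP6 against control and 2774 in LH+BMP6 against control. With only the arrays compared, 1 was called in LH against control. Leaving out single arrays or replicate numbers gave 0 to 6 calls in LH against control, 2703 to 4049 in BMP6 against control, 2754 to 4262 in LH+BMP6 against control and 2963 to 4867 in LH+BMP6 against LH. Why these counts moved was not tested, beyond the smaller number of arrays. Of the 5 genes most like each member, Spearman correlation shared 1 for NMB, 3 for NPPC and 2 for OXT, and deviations from group means shared 1, 2 and 1. Arrays with the same replicate number deviated together at a mean r of 0.20 for LH+BMP6 and LH, where 4 of 4 LH+BMP6 arrays correlated best with their own number, 0.38 for LH+BMP6 and BMP6 (pairs from 0.08 to 0.69), 0.16 for LH and control, 0.02 for LH+BMP6 and control, and 0.04 for BMP6 and control. As in none of these 5 comparisons every pair exceeded 0.1, the bound used, the numbers were not taken as pairs in the main fit. All 5 means were above 0, so this does not show that the arrays were unpaired. With the replicate block 5706 probe sets were called in LH+BMP6 against LH, 5202 in BMP6 against control and 2 in LH against control, and the adjusted p of NMB was 1.66e-06, 1.18e-05 and 0.695 in these. The main fit, without the block, called 4879, 4340 and 3 in the same order. Among the peptide system genes described, the block also gave a call to NPR2, PAM and SPCS2 in BMP6 against control and to CPE and SPCS1 in LH+BMP6 against LH, and took that of CALCRL in LH+BMP6 against LH. With the hybridisation-control signal as a term ZNF592 was not called in BMP6 against control. CTSL, SCG5, SPCS1, NRDC, AGTR1, PRLR and VIPR2 also lost their calls there.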
